A study of Saccharomyces cerevisiae with 2 samples.

Results

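Between the nucleosomes of total chromatin and those recovered with the histone variant H2A.Z, most centres on chromosome III of budding yeast coincided, and 629 H2A.Z positions stood apart by a distance of more than 20 and at most 73 bp. These shifted positions are described here. They were chosen from the paired-end list of the H2A.Z library by the distance from each centre to the nearest centre of the total paired-end list, and they made up 629 of its 2264 positions. That is 27.8% of the list (95% Wilson interval 26.0 to 29.7%). A further 1572 positions lay within 20 bp of a total centre and serve as the comparison, and 63 lay more than 73 bp away. Because the centres themselves chose the positions, the number and size of the shifts are a description and carry no test.

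Both libraries came from strain yFR212, a W303 strain of mating type MATa, GAL+ and psi+, with mutant alleles of ADE2, CAN1, HIS3, LEU2, TRP1 and URA3, whose HTZ1 gene, which encodes H2A.Z, carries 3 Myc epitopes at its 3' end (HTZ1::3myc). Both groups therefore carry the tag, and the labels give no drug or other treatment. Cells reached an optical density of 0.8 in YPD and were fixed with 1% formaldehyde, and aliquots of their chromatin were cut in the linkers by differing amounts of micrococcal nuclease (MNase) for 20 minutes at 37 °C. The total library is DNA from all mononucleosomes, and the H2A.Z library is what an anti-Myc antibody pulled down from them, with 1 library each. An H2A.Z position therefore means a position listed for that library, and it need not carry the variant in every cell.

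H2A.Z replaces H2A in a subset of nucleosomes and is placed there by the SWR1 remodelling complex. In budding yeast it is known for the nucleosomes that border the nucleosome-depleted regions at gene starts. Neighbouring nucleosomes can slide along DNA, and a population of cells can hold overlapping alternative positions, so a map of centres from many cells can list centres that no single DNA molecule holds together.

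Each library has a paired-end and a single-end list, made by the authors with PING, which models forward and reverse read positions around each centre. The total lists hold 2353 and 1881 positions, and the H2A.Z lists 2264 and 1859. The lists carry no read counts, so depth is unknown. The single-end list belongs to the same library as the paired-end list, so it is no replicate. Whether it uses 1 or both ends of the same read pairs is not given in the files or labels used here, so how far the lists are independent is unknown. Each group is 1 library, so differences between libraries could not be checked in replicates and p-values are left out. Intervals for shares and medians count positions as if independent, and hold no error beyond counting.

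The shifts were mostly short. Their median size was 32.0 bp (interquartile range 25.1 to 44.8 bp), and 281 of 629 were at most 30 bp. A further 149 were between 30 and 40 bp, 89 between 40 and 50 bp, 65 between 50 and 60 bp, and 45 longer. The numbers fell away from 20 bp with no separate peak, so the lower limit divides a continuous tail.

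**Figure D1:**
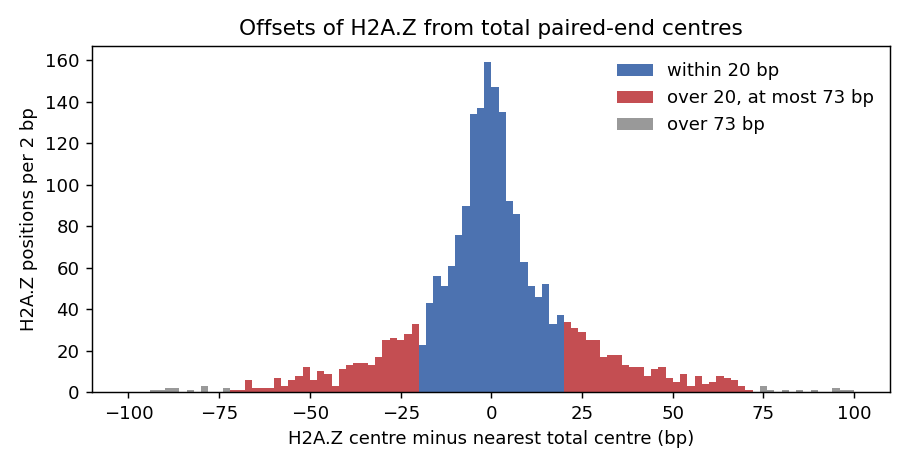
Offset of each H2A.Z paired-end centre from the nearest total paired-end centre (horizontal axis, bp, H2A.Z minus total) against the number of positions in classes of 2 bp (vertical axis). The 1572 positions within 20 bp (blue) form a single peak around 0, and the 629 shifted positions (red) are its flanks on both sides.

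At the lower limit the last positions inside the shifted set had centres at 178716 and 219402, with shifts of -20.0 and -20.1 bp, and the first ones left out were at 298347 and 43348, with offsets of 20.0 and 19.9 bp. At the upper limit the last shifted positions were at 45094 and 94984, with shifts of -72.7 and 70.9 bp. The first ones beyond it were at 67979 and 180476, at -73.8 and 74.8 bp. Coordinates here refer to chromosome III of sacCer2, as listed by the authors.

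The shifts were larger than the standard errors that PING gives for the centres. The combined standard error of a shifted centre and its total centre had a median of 3.38 bp, and the shift was a median of 9.58 times that value. It lay beyond the 95% range of the combined standard error in 623 of 629 pairs (97.9 to 99.6%), against 64.5% of all H2A.Z positions. Since the rule demands more than 20 bp, that count follows largely from the choice. The standard errors were also small beside other offsets in these maps. Among positions within 20 bp of a total centre, 49.4% (46.9 to 51.8%) lay beyond that range too. Within the H2A.Z library, 27.0% (24.9 to 29.3%) of the 1516 paired-end centres with a single-end centre within 20 bp lay beyond it from that centre.

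Offsets of this size were found in the other direction and within each library as well. By the same limits 690 of 2353 total paired-end positions were shifted from the nearest H2A.Z centre, or 29.3% (27.5 to 31.2%), with a median of 32.9 bp. Paired-end positions set against the single-end list of their own library gave like shares. Of the H2A.Z paired-end positions 624, or 27.6% (25.8 to 29.4%), lay in this range from the nearest H2A.Z single-end centre, and of the total paired-end positions 685, or 29.1% (27.3 to 31.0%), from the nearest total single-end centre. The median sizes there were 35.7 and 35.8 bp. Single-end positions gave lower shares, within a library and between libraries. Within, 18.0% (16.3 to 19.8%) of the 1859 H2A.Z and 17.1% (15.5 to 18.9%) of the 1881 total single-end positions lay in this range from a paired-end centre of their own library. Between, 290 H2A.Z single-end positions, or 15.6% (14.0 to 17.3%), did so from a total single-end centre.

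The shifts fell about evenly on both sides of the total centres. Of the 629 positions 331 lay at a higher coordinate than their total centre, or 52.6% (48.7 to 56.5%), against 48.6% of all H2A.Z positions and 47.2% (44.7 to 49.7%) of those within 20 bp. Defined from the single-end lists instead, the share at a higher coordinate was 56.6% (50.8 to 62.1%), an interval above 50%. Those to the higher and lower side were alike in size, with medians of 32.3 bp (30.6 to 34.3 bp) and 31.5 bp (29.9 to 33.6 bp). Their median score ranks, as percentiles with 0 for the highest score, were 64.3 (61.6 to 67.5) and 65.8 (59.7 to 68.4).

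The shifts also did not point mainly toward the wider side of the total nucleosome. For this the total single-end centre within 20 bp of the total paired-end centre was taken, with its distances to the single-end centres on either side. It could be judged for 398 shifted positions, at which the wider distance had a median of 169 bp and the narrower one of 144 bp. Of these, 194 pointed to the wider side, or 48.7% (43.9 to 53.6%), against 45.9% of all judged H2A.Z positions. On average the wider side took 55.9% of the combined distance. Of the bases where the rule allows a shifted centre, 51.7% lay on the wider side, so the share pointing there was within its interval of both an even split and those bases.

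For the 1273 judged positions within 20 bp the share was lower, at 43.7% (41.0 to 46.4%). That value depended on where the distances start. Measured from the total paired-end centre in place of the single-end centre, it was 51.8% (49.0 to 54.5%), and for the shifted positions 53.0% (48.1 to 57.9%). The interval for the shifted positions included 50% in both measures. It lay below 50% once lower-scoring neighbours at under 100 bp were removed, at 40.7% (34.6 to 47.1%). It also lay below 50% in some classes of shifted positions that are described further on. Where both single-end lists had a centre at the H2A.Z place it was 17 of 59, or 28.8% (18.8 to 41.4%), and for positions between total centres on either side 15 of 49, or 30.6% (19.5 to 44.5%). The definitions of these classes partly set these shares. A total single-end centre near the H2A.Z centre tends to make the side of the shift the narrower one. So does a second total centre on that side. Hence no direction was read from these values. Among the shortest shifts, up to 30 bp, 71 of 166 pointed to the wider side, or 42.8% (35.5 to 50.4%). Among those of 50 to 60 bp it was 31 of 49, or 63.3% (49.3 to 75.3%), and among those over 60 bp 20 of 32, or 62.5% (45.3 to 77.1%). The point values were higher for long shifts, and each of these intervals included 50%. A long shift needs the next total paired-end centre on that side to be far away, so a rise with size may be partly built in. The bases open to the rule were not counted by shift size. Positions that pointed to the wider side were found in the H2A.Z single-end list less often, with 32.5% (26.3 to 39.3%) against 44.6% (37.9 to 51.5%) of those that pointed to the narrower side, intervals that overlapped slightly.

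**Figure D2:**
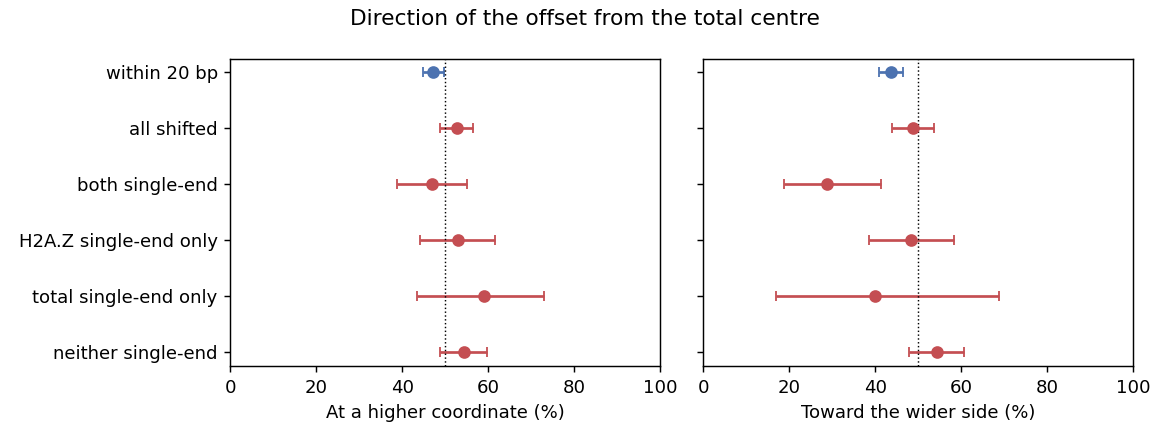
Direction of the offset from the total centre for H2A.Z positions within 20 bp (blue) and for shifted positions, all together and by whether a single-end list has a centre within 20 bp (red). Points are shares (%) at a higher coordinate (left) or toward the wider adjacent distance of the total single-end list (right), bars are 95% Wilson intervals, and the dotted line marks 50%. For all shifted positions both intervals include 50%.

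Fewer shifted centres were found again by single-end data of their own library. For 264 of the 629, or 42.0% (38.2 to 45.9%), the H2A.Z single-end list had a centre at most 20 bp off, against 67.0% of all H2A.Z positions and 79.0% (76.9 to 80.9%) of those within 20 bp of a total centre. The share fell with the size of the shift. It was 61.2% (55.4 to 66.7%) for shifts up to 30 bp, 36.2% (29.0 to 44.2%) from 30 to 40 bp, 24.7% (16.9 to 34.6%) from 40 to 50 bp, 15.4% (8.58 to 26.1%) from 50 to 60 bp and 13.3% (6.26 to 26.2%) above. Just below the limit, for offsets of 15 to 20 bp, it was 72.9% (66.1 to 78.7%).

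The H2A.Z single-end list had a centre at the total place more often than at the shifted one. It lay within 20 bp of the total paired-end centre for 326 of the 629, or 51.8% (47.9 to 55.7%), against 70.9% over all H2A.Z positions. The places can share a single-end centre, since they may be less than 40 bp apart. Of the 264 positions with an H2A.Z single-end centre, 97 had one within 20 bp of the total centre too, or 36.7% (31.2 to 42.7%). In 39 of the 264, or 14.8% (11.0 to 19.6%), the matched single-end centre was nearer to the total than to the H2A.Z paired-end centre.

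Shifted positions scored lower than the others, and low-scoring positions of either set were found less often. The H2A.Z list was divided by score into 4 classes of 566 positions, and the shifted positions had the lower share in each. In the highest class 36 of 58 shifted positions had a single-end centre, or 62.1% (49.2 to 73.4%), against 94.5% (92.1 to 96.2%) of 508 within 20 bp. In the lowest class it was 71 of 215, or 33.0% (27.1 to 39.6%), against 59.5% (53.8 to 64.9%) of 296.

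Some shifted centres had a total single-end centre nearby, but a smaller share than among all H2A.Z positions. A total single-end centre lay within 20 bp of 180 shifted H2A.Z centres, or 28.6% (25.2 to 32.3%), against 64.5% of all H2A.Z positions and 81.1% (79.1 to 83.0%) of those within 20 bp. At shifts up to 30 bp the share was 43.4% (37.7 to 49.3%). Such a single-end centre can also lie within 20 bp of the total paired-end centre, since the places may be less than 40 bp apart. A match therefore need not be a separate centre at the H2A.Z place. Conversely, the total paired-end centre from which the shift was measured had a total single-end centre within 20 bp in 398 of 629 cases, or 63.3% (59.4 to 67.0%), against 76.3% over all H2A.Z positions.

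**Figure D3:**
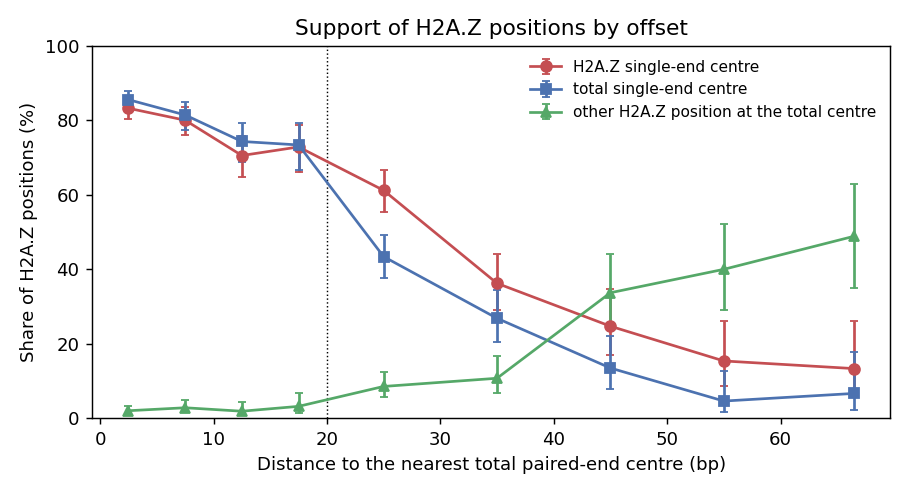
Share of H2A.Z paired-end positions (vertical axis, %) with a single-end centre within 20 bp in the H2A.Z (red) or total (blue) library, and share whose nearest total centre has another H2A.Z position within 20 bp (green), by distance to the nearest total paired-end centre (horizontal axis, bp). Bars are 95% Wilson intervals and the dotted line marks the lower limit of 20 bp; from 20 to 30 bp the shares were 61.2, 43.4 and 8.54%, and above 60 bp 13.3, 6.67 and 48.9%.

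Grouped by what the single-end lists held, the shifted positions fell into classes that differed in score and precision. In 141, or 22.4% (19.3 to 25.8%), both lists had a centre at the H2A.Z place. In 123, or 19.6% (16.6 to 22.8%), only the H2A.Z list had it. In 39, or 6.20% (4.57 to 8.36%), only the total list had it, and in 326, or 51.8% (47.9 to 55.7%), neither had. Among positions within 20 bp of a total centre, both lists had a centre for 1147 of 1572 (70.7 to 75.1%) and neither in 12.8% (11.3 to 14.6%). Among these only the H2A.Z list had a centre in 6.04% (4.97 to 7.33%) and only the total list in 8.14% (6.89 to 9.60%).

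The class found in both single-end lists had the highest ranks and the shortest shifts. Its median shift was 25.1 bp (24.3 to 26.5 bp), its median rank percentile 49.2 (43.0 to 55.3), and its median standard error 2.22 bp (2.14 to 2.37 bp), close to the 2.25 bp of positions within 20 bp. Only 59 of these 141 had a total single-end centre at the total paired-end centre, or 41.8% (34.0 to 50.1%). In the class found in neither list the median shift was 38.0 bp (35.1 to 40.4 bp), the rank percentile 69.4 (66.3 to 72.6) and the standard error 3.22 bp (3.12 to 3.33 bp). There the total paired-end centre had a single-end partner in 234 of 326, or 71.8% (66.7 to 76.4%).

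Another class had an H2A.Z single-end centre and none in the total single-end list. Its 123 positions had a median shift of 29.6 bp (28.1 to 32.7 bp), a median rank percentile of 66.2 (60.1 to 70.9) and a standard error of 2.61 bp (2.49 to 2.73 bp). The nearest total single-end centre was more than 30 bp away from 64 of them, or 52.0% (43.3 to 60.7%), and so between 20 and 30 bp from the others. The 39 positions found only in the total single-end list had a median shift of 36.1 bp (30.3 to 38.9 bp), a rank percentile of 68.7 (56.0 to 74.9) and a standard error of 2.99 bp (2.67 to 3.15 bp).

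Where single-end data listed both centres, their offset mostly pointed the same way and had a shorter median. This measure was not used to choose the positions, although it comes from the same libraries. For 154 shifted positions an H2A.Z single-end centre lay within 20 bp of the H2A.Z paired-end centre and a total single-end centre within 20 bp of the total one, a share of 24.5% (21.3 to 28.0%), against 71.3% (69.0 to 73.5%) of the positions within 20 bp. The single-end offset had the direction of the paired-end shift in 142 of 154, or 92.2% (86.9 to 95.5%). Since each single-end centre had to lie within 20 bp of a paired-end centre more than 20 bp apart, a common sign is partly fixed by the matching. Along the shift the single-end offset had a median of 16.7 bp (15.1 to 20.5 bp), against 26.6 bp (24.9 to 27.9 bp) for the paired-end shift of the same positions. The single-end offset exceeded 20 bp in 66, or 42.9% (35.3 to 50.8%). Only the paired-end shift was chosen to exceed 20 bp, so a shorter single-end offset follows in part from that choice. Among positions within 20 bp the absolute single-end offset had a median of 3.64 bp (3.34 to 3.94 bp) and exceeded 20 bp in 30 of 1121.

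By the strictest reading, 49 of the 629 positions were displaced in both list types, or 7.79% (5.94 to 10.2%). In these both centres had a single-end partner, the single-end offset exceeded 20 bp along the shift, no total single-end centre lay within 20 bp of the H2A.Z centre, and no H2A.Z single-end centre within 20 bp of the total one. Their median shift was 31.9 bp (29.0 to 36.5 bp) by paired-end and 31.9 bp (28.1 to 37.5 bp) by single-end data. Since only single-end offsets over 20 bp were kept, the likeness of these medians is partly set by the filter. They lay at a higher coordinate in 29 of 49 cases, or 59.2% (45.2 to 71.8%), and toward the wider side in 22 of 49, or 44.9% (31.9 to 58.7%). Their median rank percentile, 70.9 (61.2 to 79.5), was in the lower part of the list. The nearest total single-end centre was more than 30 bp away from 28 of the 49, or 57.1% (43.3 to 70.0%). For the others it lay between 20 and 30 bp away, just past the matching distance. This subset was defined after values had been seen.

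**Figure D4:**
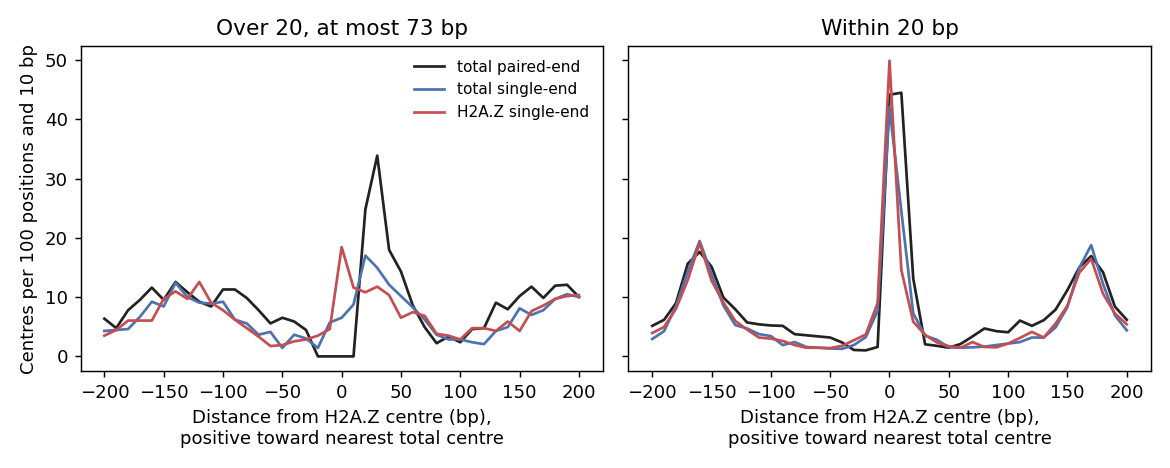
Centres of the other lists around H2A.Z paired-end centres, for shifted positions (left) and positions within 20 bp (right), as centres per 100 positions in classes of 10 bp (vertical axis), against distance from the H2A.Z centre (horizontal axis, bp), turned so that the nearest total centre is at positive values. At the H2A.Z centre itself the H2A.Z single-end list had 18.4 centres per 100 shifted positions and the total single-end list 6.52, against 49.9 and 42.0 for positions within 20 bp; the empty interval of total paired-end centres on the left is set by the rule.

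The shifted positions had closer neighbours. Around positions within 20 bp, total single-end centres rose to 19.5 per 100 positions and 10 bp at 160 bp on one side and to 18.8 at 170 bp on the other, the places of the adjacent nucleosomes. Around shifted positions the highest values between 110 and 200 bp were 12.4 at 140 bp on the side away from the total centre and 10.5 at 190 bp on the other. The rule moves the total centre by more than 20 bp in this view and so moves its neighbours, and it spreads them over a range of shifts, so the lower values are no measure of regularity. The nearest other H2A.Z paired-end centre lay a median of 80.1 bp away (76.2 to 83.7 bp), against 129 bp (125 to 134 bp) for positions within 20 bp. A neighbour at less than 100 bp, closer than the length of DNA that a nucleosome wraps, was listed for 434 of the 629, or 69.0% (65.3 to 72.5%), against 32.7% (30.4 to 35.1%).

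By their place relative to other centres the shifted positions formed 4 groups. In the first, of 118 positions or 18.8% (15.9 to 22.0%), the total centre had another H2A.Z position within 20 bp, against 9.05% over all H2A.Z positions, so the shifted centre was listed in addition to an unshifted one. These had the longest shifts of the 4 groups, with a median of 47.1 bp (44.6 to 48.9 bp), and an H2A.Z single-end centre in only 15 of 118, or 12.7% (7.86 to 19.9%). The share of such additional centres rose from 8.54% (5.81 to 12.4%) for shifts up to 30 bp to 48.9% (35.0 to 63.0%) for those above 60 bp. The lists seldom held H2A.Z paired-end centres close together. Around positions within 20 bp there were 0.573 per 100 positions and 10 bp at 40 bp toward the total centre, and 4.33 at 70 bp. A short shift thus leaves little room for another H2A.Z centre at the total centre. The long shifts of this group and the rise with size are therefore partly built in.

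In the second group, of 206 positions or 32.8% (29.2 to 36.5%), a total centre was shared by at least 2 shifted positions. Over all shifted positions 510 total centres were involved, of which 93 had shifted H2A.Z positions on both sides. The median shift of the second group was 34.6 bp (32.7 to 37.3 bp), and an H2A.Z single-end centre was listed for 56 of 206, or 27.2% (21.6 to 33.6%).

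The third group was the reverse case. Its 128 positions, or 20.3% (17.4 to 23.7%), lay between 2 total paired-end centres that were both at most 73 bp away. Of these 90, or 70.3% (61.9 to 77.5%), had an H2A.Z single-end centre within 20 bp, against 67.0% of all H2A.Z positions. A total single-end centre was listed for 75, or 58.6% (49.9 to 66.8%), against 64.5% of all. These shares were the highest of the 4 groups, and both intervals included the share over all H2A.Z positions. Both lists had a centre at 66 of the 128, or 51.6% (lower bound 43.0%). For the 75, the total paired-end list thus held centres on both sides of a place with a total single-end centre within 20 bp. Counted regardless of group, 27.0% (23.7 to 30.6%) of shifted positions lay between such centres, against 12.9% (11.3 to 14.7%) of positions within 20 bp. A shifted position can meet this limit with total centres further apart than a position within 20 bp can. The difference therefore follows in part from the rule.

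The fourth group, of 177 positions or 28.1% (24.8 to 31.8%), held the others, in which a single H2A.Z centre stood near a single total centre. Their median shift was 27.2 bp (25.5 to 29.3 bp). An H2A.Z single-end centre was listed for 103, or 58.2% (50.8 to 65.2%), and a total single-end centre for 58, or 32.8% (26.3 to 40.0%).

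Shifted positions ranked low by score. Their median rank was 1473 of 2264, a percentile of 65.0 (62.5 to 67.4), against 40.6 (38.5 to 43.0) for positions within 20 bp. Of the 226 positions in the top 10% of the H2A.Z list, 11 were shifted, or 1.75% of the shifted positions (0.979 to 3.10%), against 13.7% (12.1 to 15.5%) of those within 20 bp. The shifted share of the list rose from 10.2% (8.01 to 13.0%) in the highest of the 4 score classes to 24.9% (21.5 to 28.6%) in the second and 38.0% (34.1 to 42.1%) in the third and in the fourth.

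The total centres next to them ranked lower as well. Their median percentile in the total list was 56.8 (53.7 to 58.7), against 39.2 (37.1 to 41.2) for the total centres of positions within 20 bp. Ranks in the 2 libraries were less alike across a shift. Spearman's rho over positions between the H2A.Z rank and the rank of the total centre was 0.244 for the 629 shifted positions and 0.574 for the 1572 within 20 bp. Positions that share a total centre enter more than once, and positions are not replicates. Within the shifted set, size was only weakly related to rank percentile (rho 0.176) and standard error (0.228).

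The standard error of the centre was larger for shifted positions, with a median of 2.82 bp (2.72 to 2.96 bp) against 2.25 bp (2.17 to 2.31 bp). Low scores go with large standard errors in the list, and the difference was smaller within the score classes. In the highest the medians were 1.59 bp (1.48 to 1.69 bp) and 1.36 bp (1.31 to 1.40 bp), and in the lowest 3.59 bp (3.44 to 3.78 bp) and 3.25 bp (3.16 to 3.43 bp).

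Fuzziness was taken as the spread (SD) of forward reads at each centre, the square root of the variance given by PING. The reverse spread was not used. Forward fuzziness was slightly higher over the whole set but not in each score class. Over all its median was 27.5 bp (27.1 to 27.9 bp) for shifted positions and 26.4 bp (26.2 to 26.7 bp) for those within 20 bp, and the interquartile ranges overlapped widely, with upper ends of 30.5 and 29.6 bp. In the highest score class the medians were 25.8 bp (24.4 to 26.9 bp) and 23.2 bp (22.9 to 23.7 bp). In the second and the third class the shifted positions had the lower median, with 26.4 bp (25.4 to 27.3 bp) against 26.7 bp (26.3 to 27.3 bp) and 27.1 bp (26.4 to 28.0 bp) against 28.1 bp (27.5 to 28.7 bp). In the lowest it was 28.7 bp (28.0 to 29.4 bp) against 28.5 bp (28.0 to 29.3 bp), and in these 3 classes the intervals overlapped. With a lower limit of 30 bp the difference of medians was 0.337 bp (-0.0987 to 0.954 bp), and in the upper 75% by score it was 0.510 bp (-0.180 to 1.04 bp), so both intervals included 0. Fuzziness differed more among the shifted positions. Positions between total centres had a median of 29.6 bp (28.7 to 30.4 bp) and single ones 29.4 bp (28.7 to 30.3 bp). Positions that shared a total centre had 26.1 bp (25.6 to 26.6 bp) and additional ones 25.4 bp (24.8 to 26.5 bp). The wider centres were thus those with no second H2A.Z centre assigned to the same total centre.

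The total centres beside shifted positions also had a higher median forward SD, 27.7 bp (27.2 to 28.2 bp) against 25.1 bp (24.9 to 25.4 bp). These medians count a total centre once for each H2A.Z position. Those shared among the 510 total centres of shifted positions therefore enter more than once. The total centres beside shifted positions also ranked lower, and their forward SD was not compared within score classes.

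Delta, which PING fits as the spacing of forward and reverse peaks and which reflects the protected length, differed little between the sets in the paired-end lists. Its median was 124.8 bp (124.4 to 125.2 bp) for shifted positions and 125.0 bp (124.6 to 125.3 bp) for those within 20 bp, a difference of -0.16 bp (-0.75 to 0.37 bp). With the single-end lists defining the shift it was 1.75 bp (0.607 to 3.97 bp), an interval above 0. In each of the 4 score classes the intervals overlapped as well.

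Entries whose identifier is not a whole number, a feature that the headers do not explain, were more frequent among shifted positions. Whole identifiers made up 64.7% (60.9 to 68.3%) of them, against 74.2% of all H2A.Z positions and 78.2% (76.1 to 80.2%) of those within 20 bp. In the class found in neither single-end list whole identifiers made up 53.1% (47.6 to 58.4%), and in the class found in the H2A.Z single-end list alone 81.3% (73.5 to 87.2%). Their part in the shifts was not tested.

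**Figure D5:**
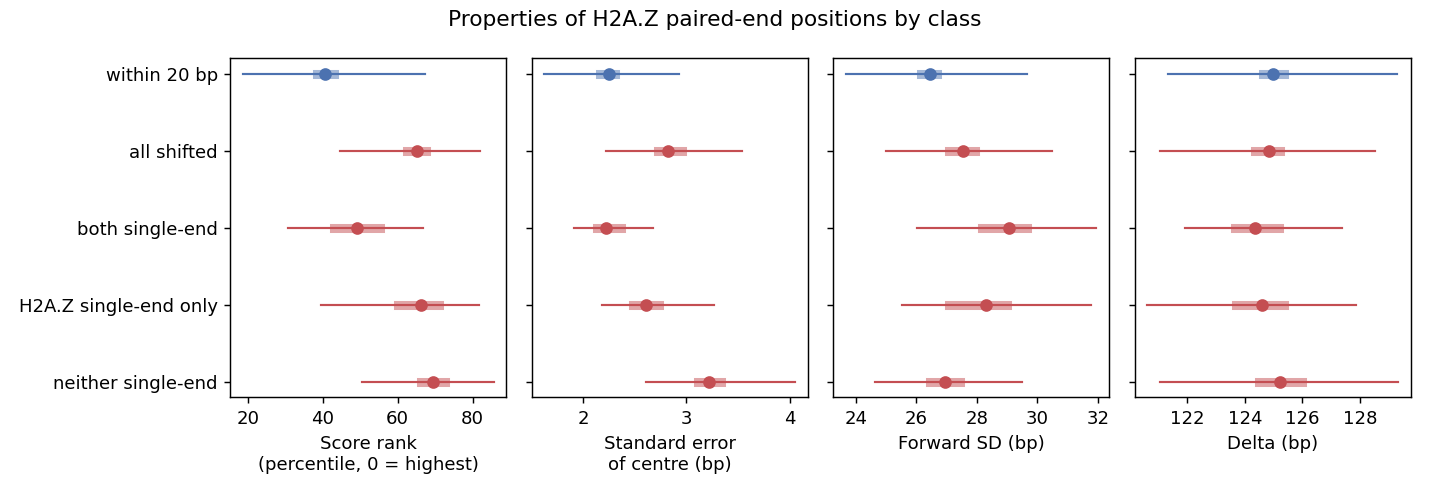
Score rank, standard error of the centre, forward SD and delta of H2A.Z paired-end positions within 20 bp of a total centre (blue) and of shifted positions, all together and by single-end list (red). Points are medians, thick bars 95% order-statistic intervals over positions and thin lines interquartile ranges; shifted positions ranked lower (median percentile 65.0 against 40.6) and had similar delta (124.8 and 125.0 bp).

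The highest-scoring shifted positions show the forms that a shift can take. The first had its H2A.Z centre at 109080, ranked 105 and scored 4.42. Its nearest total paired-end centre was at 109057, 23.4 bp lower, and another total centre lay 30.1 bp higher. The H2A.Z single-end list had a centre 1.58 bp away and the total single-end list one 2.75 bp away, so 3 of the 4 lists held the same centre and the total paired-end list held a centre on either side.

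The second and the third had the same form. The second, at 40972, ranked 108 with a score of 4.32, with total paired-end centres 25.8 bp below and 39.0 bp above it. The H2A.Z and total single-end centres lay 0.744 and 1.59 bp away. The third, at 74047, ranked 124 with a score of 3.73, with total paired-end centres 28.1 bp below and 29.9 bp above. The single-end centres lay 3.68 and 5.74 bp away. In these places the H2A.Z and total single-end lists had the same nucleosome.

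The fourth and the fifth lay on either side of a single total centre at 138234, which ranked 1420. The fourth, at 138179, scored 3.64 and was shifted by -55.0 bp, and the other, at 138259, scored 3.44 and was shifted by 24.9 bp. The H2A.Z single-end list had a single nearest centre for both, at 138214, which lay 34.8 bp from the one and 45.1 bp from the other. The H2A.Z paired-end list thus held centres on either side of it, and total single-end centres lay 27.2 and 6.76 bp from them. The sixth, at 116203, scored 3.42 and was shifted by -23.7 bp. Its H2A.Z single-end centre lay 1.00 bp away and a total single-end centre 11.2 bp away.

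Among positions with an H2A.Z single-end centre and no total single-end centre within 20 bp, that at 138904 scored highest, with 3.36 at rank 143. It lay 22.0 bp above the total centre at 138882, and the H2A.Z single-end centre, 13.7 bp away, was nearer to that total centre, at 8.32 bp. The second, at 152684, scored 2.09, lay 36.6 bp above its total centre at 152648 and had an H2A.Z single-end centre 1.35 bp away. A total single-end centre lay 20.1 bp from it, just past the matching distance.

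The third, at 156603, had the most distant total single-end centre of the 6. It scored 1.53 at rank 342, lay 24.4 bp below the total centre at 156627, which ranked 524, and had an H2A.Z single-end centre 3.02 bp away, while the nearest total single-end centre was 42.6 bp away. The fourth, at 296674, scored 1.46 and lay 29.0 bp below its total centre. The fifth, at 84745, scored 1.43 and lay 26.5 bp below, and the sixth, at 91410, scored 1.39 and lay 27.4 bp above. Their H2A.Z single-end centres, 7.95 and 10.3 bp away, were also within 20 bp of the total centres, at 18.6 and 17.1 bp. For the fourth to the sixth the nearest total single-end centre was 21.5, 23.9 and 20.8 bp away, all just past the matching distance.

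Neighbouring shifted positions formed no long runs in the same direction. In 277 cases consecutive positions of the H2A.Z list were both shifted, and 112 of these pairs had the same direction, or 40.4% (34.8 to 46.3%). Pairs up to 100 bp apart mostly pointed apart or toward each other, with the same direction in 46 of 162, or 28.4% (22.0 to 35.8%). This low share is partly set by geometry. Shifts in the same direction from adjacent total centres leave a pair about as far apart as those centres, so close pairs tend to differ in direction. The share over all pairs includes these close pairs and is lowered by them. For pairs more than 100 bp apart the share was 66 of 115, or 57.4% (48.3 to 66.0%), an interval that includes 50%. Among consecutive positions within 20 bp it was 52.1% (49.2 to 54.9%). Runs of shifted positions with the same direction were short. There were 423 of 1 position, 78 of 2, 14 of 3 and 2 of 4. The higher-scoring run of 4 had centres at 244405, 244545, 244624 and 244628, with shifts of -21.0, -21.9, -52.9 and -48.3 bp, and its last pair shared the total centre at 244677.

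Shifted positions occurred all along chromosome III. Each of the 32 windows of 10 kb held some, and in 29 the exact 95% interval of the shifted share included the overall 27.8%. The highest shares were 41.7% from 90 to 100 kb (35 of 84, exact interval 31.0 to 52.9%) and 41.4% from 180 to 190 kb (36 of 87, 30.9 to 52.4%). The lowest were 13.8% from 200 to 210 kb (8 of 58, 6.15 to 25.4%) and 17.6% from 70 to 80 kb (12 of 68, 9.46 to 28.8%). In the first 20 kb 47 of 150 positions were shifted, or 31.3% (24.0 to 39.4%), in the last 20 kb 36 of 148, or 24.3% (17.7 to 32.1%), and between the ends 27.8% (25.8 to 29.8%). Intervals of these 3 stretches overlapped.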

How the data were processed

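MNase-digested mononucleosome DNA of 1 total and 1 H2A.Z library was analysed from the 4 deposited lists of chromosome III, grouped by sample title. PING is named in the series title, and the submitters' processing notes name BWA, SAMtools and sacCer2. Of versions, filters and PING settings the sources used here say nothing. Per the file headers the authors give centre, delta, variances and standard errors in bp or squared bp, a mixing weight deposited as a fraction, and the authors' own score with no stated scale. The score was used only to rank or filter within a list. No read counts are given, so depth is unknown.

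Nearest centres were found with pandas 2.3.3, scipy 1.17.1 and numpy 2.4.6 under Python 3.11.15. A single-end match means within 20 bp. Shares carry 95% Wilson intervals (exact Clopper-Pearson for windows and ends) and medians order-statistic intervals. An interval for a difference of medians combines both. The steps for shift and direction were tested on simulated data. With 1 library per group no statistical test was run. The positions, classes and measures were chosen with earlier results of these data known. Positions named by coordinate were the 6 highest-scoring shifted ones, the 6 highest-scoring with an H2A.Z but no total single-end centre, those next to each limit, the longest run, and the windows with the 2 highest and 2 lowest shares. Alternatives covered the limits, score, identifiers, close neighbours, standard errors, list type and matching distance. Positions were not assigned to genes, and no genome sequence was used here, since the gene table belongs to another assembly.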

Additional observations from a re-analysis of the deposited data

How the results depend on the processing

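Of 85 alternatives to 11 results, 45 left the value within its interval, or a count within 1.5 times, and 40 moved it; 0 reversed a difference whose interval lies away from 0. The number of shifted positions, 629, was 348 with a lower limit of 30 bp, 371 in the upper 75% by score, 349 for whole identifiers, 394 once lower-scoring neighbours at under 100 bp were removed, and 290 in single-end lists. The median shift was 42.3 bp with the 30 bp limit and 29.2 bp with an upper limit of 50 bp, which follows from the limits. The share at a higher coordinate was 56.6% (50.8 to 62.1%) in single-end lists, an interval that leaves out 50%; the cause was not tested. The share toward the wider side was 40.7% (34.6 to 47.1%) after the removal and, with a setting chosen after seeing the data, 40.9% (33.5 to 48.8%) for positions with an H2A.Z single-end centre, both below an even split; the cause was not tested.

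The share with an H2A.Z single-end centre was 26.4% with the 30 bp limit, 47.8% with the 50 bp limit, 46.9% in the upper 75%, 51.6% for whole identifiers, 61.9% after the removal, 59.7% when single-end lists define and paired-end lists check, and 27.3% at a matching distance of 10 bp. That with a total single-end centre was 16.7, 33.5 and 34.5% in the first 3 of these, 45.4% after the removal, 36.9% with list types exchanged and 14.0% at 10 bp. The share with another H2A.Z position at the total centre was 27.0% and 13.5% with the limits of 30 and 50 bp, 9.46% for whole identifiers, 12.8% with list types exchanged, 9.86% at 10 bp and 0% after the removal, by construction. The rank difference, 24.4 percentile points, was 19.8 in the upper 75%, 20.5 after the removal and 29.6 in single-end lists. The difference in standard error, 0.572 bp, was 0.738 bp with the 30 bp limit, 0.411 bp after the removal and 1.67 bp in single-end lists. That in forward SD, 1.08 bp, was 0.337 bp (-0.0987 to 0.954 bp) with the 30 bp limit, 0.510 bp (-0.180 to 1.04 bp) in the upper 75%, where both intervals include 0, 1.60 bp after the removal and 4.17 bp in single-end lists. That in delta, -0.16 bp, was 1.75 bp (0.607 to 3.97 bp) in single-end lists, an interval above 0 and opposite in sign; the cause was not tested. No paired analysis was possible because each group holds 1 library, and for the same reason no library could be left out.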
